A study of Homo sapiens with 6 samples.

Results

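Polycomb group proteins work in 3 chromatin complexes, and 36 genes that encode their subunits were followed here in RNA-seq of 6 libraries labelled as a breast cancer cell line. The genes were taken by name: 12 belong to Polycomb repressive complex 2 (PRC2), 21 to Polycomb repressive complex 1 (PRC1) and 3 to the Polycomb repressive deubiquitinase complex (PR-DUB). They were 36 of the 61279 genes that the transcripts map to, and all 36 passed the filter on low counts, as 16442 genes did in all.

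PRC2 methylates histone H3 on lysine 27, through EZH1 or EZH2 bound to EED and SUZ12. PRC1 attaches ubiquitin to histone H2A through RING1 or RNF2 paired with 1 of several PCGF proteins, and PR-DUB, built on the deubiquitinase BAP1, removes it. Most subunits come in paralogues, and a given complex holds a single member of each paralogue family. The MLL1 enzyme, which acts with the scaffold protein menin, methylates histone H3 on lysine 4 and belongs to the trithorax group, long known as the genetic opponent of the Polycomb group.

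All 6 libraries were labelled as wild-type T47D, a luminal breast cancer line that expresses hormone receptors. The controls carried the vehicle DMSO for 24 hours, and the others 4 μmol/L MI-503, a compound that keeps menin from binding MLL1, for the same 24 hours. Each label had 3 libraries, replicates 1 to 3, of 17404736 to 22168525 estimated reads. Replicates were independent experiments by the legend of the paper's figure. The study compared the labels to ask what MLL1 inhibition does to transcription.

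Markers of cell type went against the label of the controls. The estrogen receptor gene ESR1 was at 0 to 0.194 CPM (reads scaled to library size) in libraries labelled DMSO and at 210 to 296 CPM in libraries labelled MI-503. The prostate marker KLK3 was at 3673 to 3762 CPM in libraries labelled DMSO, and no read of it was counted in libraries labelled MI-503. All 10 luminal breast markers examined were higher and all 8 prostate markers were lower with the MI-503 label in edgeR's quasi-likelihood test. Their summed levels were 122 to 203 against 8703 to 11294 CPM for luminal breast, and 5649 to 6597 against 84.9 to 97.8 CPM for prostate. An effect of MI-503 therefore cannot be told apart from a difference between the groups of libraries in any result here, and "higher" and "lower" stand for MI-503 relative to DMSO as labelled. In bulk RNA, fewer cells of a type and less RNA per cell cannot be told apart either.

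KMT2A, which encodes MLL1, was not called (log2 fold change 0.24 ± 0.30 SE, adjusted p = 0.511 by edgeR's quasi-likelihood test). The menin gene MEN1 was higher by 1.27 ± 0.19 (SE) on the log2 scale (adjusted p = 0.000265). MI-503 acts on the protein contact, so neither transcript checks the treatment.

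Of the 36 Polycomb genes, 13 were higher (36.1%) and 6 were lower (16.7%) at an adjusted p under 0.05 in edgeR's quasi-likelihood test. Of all 16442 genes tested, 31.7% were higher and 31.2% were lower, so the share of members called higher lay near the background and the share called lower was below it. The median log2 fold change of the members was 0.19 and its median size was 0.54, beside -0.00 and 0.90 over all genes. A log2 fold change larger in size than 0.90 was found for 12 of the 36 members. Only 2 members were also past a log2 fold change of 2, PHF1 and PHF19, and 1 was past -2, PHC1, where 12.6% and 11.7% of all genes were.

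The 13 members called higher had every library labelled MI-503 above every library labelled DMSO, and 8 members had every one below (over all genes, 34.7% and 34.0%). By complex, 7 of 12 members of PRC2 were called higher (58.3%) and 1 was called lower (8.33%). In PRC1, 5 of 21 members were higher (23.8%) and 5 were lower (23.8%), and in PR-DUB 1 of 3 was higher. Beside these stand the 31.7% and 31.2% of all genes called higher and lower, and the groups are small.

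**Figure D1:**
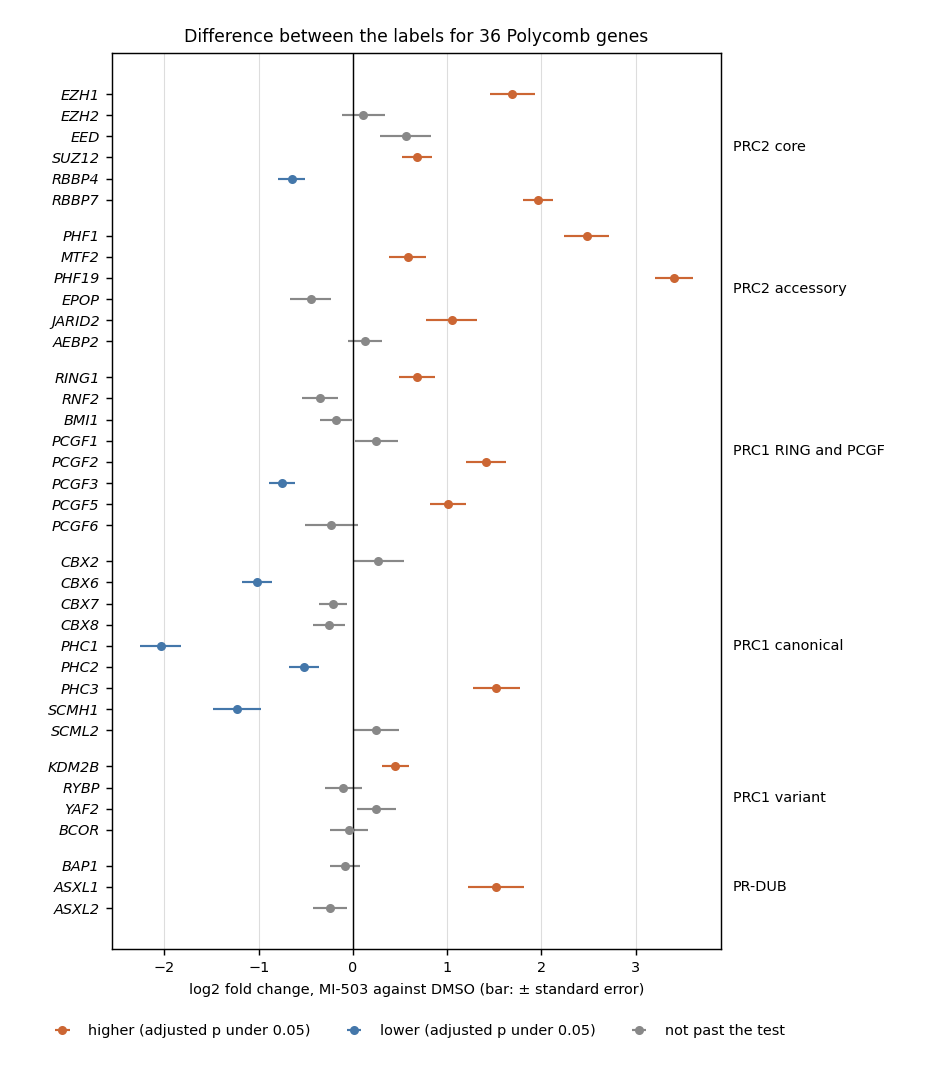
log2 fold change of each of 36 Polycomb genes, MI-503 label against DMSO label (x axis), with 3 libraries a label. Bars show the standard error derived from the F statistic of the test. Genes are grouped by complex and colored by the call: 13 were higher, 6 were lower and 17 were not past the test, with PHF19 at 3.41 and PHC1 at -2.04 at the ends.

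The 3 promoters below belong to PRC2 genes that were higher and that hold a core site of the E2F family, factors known to drive genes of PRC2 in dividing cells. Each is the 250 bases before the RefSeq start site on the coding strand (GRCh38.p14), and capitals mark the match.
EZH1 (chr17:42745041-42745290, minus strand): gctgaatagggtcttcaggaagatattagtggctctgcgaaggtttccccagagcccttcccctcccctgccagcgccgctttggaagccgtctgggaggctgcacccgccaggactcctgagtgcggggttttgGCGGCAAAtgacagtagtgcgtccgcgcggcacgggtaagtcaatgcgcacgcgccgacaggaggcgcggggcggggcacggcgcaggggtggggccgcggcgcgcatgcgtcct
SUZ12 (chr17:31936757-31937006, plus strand): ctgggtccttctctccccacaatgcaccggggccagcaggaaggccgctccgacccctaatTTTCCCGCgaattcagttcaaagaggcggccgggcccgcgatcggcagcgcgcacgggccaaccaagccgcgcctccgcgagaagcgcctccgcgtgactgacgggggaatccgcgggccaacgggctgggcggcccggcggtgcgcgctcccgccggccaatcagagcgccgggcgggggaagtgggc
PHF19 (chr9:120877189-120877438, minus strand): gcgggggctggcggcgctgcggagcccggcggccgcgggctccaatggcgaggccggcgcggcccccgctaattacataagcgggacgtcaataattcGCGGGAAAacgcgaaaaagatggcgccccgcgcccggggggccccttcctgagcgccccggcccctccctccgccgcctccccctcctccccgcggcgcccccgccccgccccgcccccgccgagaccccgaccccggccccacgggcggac
The letters searched were TTTCCCGC, TTTGGCGC, TTTCGCGC and TTTGCCGC on both strands. The match ended 107 bases before the start site in EZH1, 181 in SUZ12 and 144 in PHF19. A window was found for 32 of the 36 members (not CBX2, CBX8, EPOP and BAP1), and 4 windows held a match, the other one being that of AEBP2, which was not called. The windows of EZH2 and EED held none. By call, a match was found in 3 of 13 windows of higher members, 0 of 6 of lower and 1 of 13 of uncalled members. These are too few to compare. Of 21604 windows of protein-coding genes, 3.50% held one. A match is a run of letters and does not show that a factor binds there.

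The methyltransferase subunits of PRC2 differed from each other. EZH1, the paralogue known from resting and differentiated cells, had levels of 21.2, 17.1 and 21.7 CPM in replicates 1, 2 and 3 labelled DMSO and of 88.4, 57.0 and 48.4 CPM in those labelled MI-503. Values below keep this order of replicates. All 3 libraries labelled MI-503 lay above all labelled DMSO, and replicate 1 was the highest. The log2 fold change was 1.69 ± 0.24 (SE, adjusted p = 0.000173). EZH2, the paralogue of dividing cells, was at 33.5, 39.8 and 53.1 CPM in the DMSO libraries and 57.9, 44.1 and 34.4 CPM in the MI-503 libraries. Its groups overlapped (log2 fold change 0.11 ± 0.23 SE, adjusted p = 0.702).

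Levels of different genes are compared here as TPM, which divides by transcript length. EZH2 took 68.0%, 70.8% and 71.7% of the summed TPM of EZH1 and EZH2 in the libraries labelled DMSO and 38.6%, 47.4% and 51.0% in those labelled MI-503. The groups did not overlap and the means differed by -24.5 percentage points. This was the smallest p that 3 libraries against 3 allow (p = 0.10, exact permutation test, two-sided, and 0.141 after Benjamini-Hochberg adjustment over 24 shares). The same p holds for every share below whose groups did not overlap, and no share could reach 0.05.

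The other subunits of the PRC2 core were SUZ12, EED and a pair of histone chaperones. SUZ12, which holds the core together, was at 125, 109 and 112 CPM in the DMSO libraries and 162, 217 and 177 CPM in the MI-503 libraries, without overlap (log2 fold change 0.68 ± 0.16 SE, adjusted p = 0.00403). The pseudogene SUZ12P1 was counted at 0.968 to 2.85 CPM, and reads may be split between it and SUZ12. EED, which binds the methylated histone, was at 11.9, 18.6 and 26.3 against 26.7, 25.7 and 31.8 CPM. EED was not called (log2 fold change 0.56 ± 0.27 SE, adjusted p = 0.0935), but it passed without DMSO replicate 3 (0.88, adjusted p = 0.00962) and with no filter on low counts (0.60, adjusted p = 0.0331). Over the 14 alternatives the adjusted p of EED ran from 0.00962 to 0.233.

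The histone chaperones RBBP4 and RBBP7, which bind histone H4 and also serve other complexes such as those of histone deacetylases, went in opposite directions. RBBP4 was at 239, 225 and 230 CPM in the DMSO libraries and 139, 159 and 142 CPM in the MI-503 libraries (log2 fold change -0.65 ± 0.14 SE, adjusted p = 0.00207). RBBP7 was at 110, 136 and 138 CPM in the DMSO libraries and 481, 534 and 473 CPM in the MI-503 libraries, 3.88-fold higher (log2 fold change 1.96 ± 0.16 SE, adjusted p = 4.25e-06). Neither gene's groups overlapped. RBBP7 rose from 22.7%, 26.4% and 29.4% of the pair's TPM to 74.4%, 70.2% and 68.6%. By TPM of all transcripts, the more abundant chaperone was therefore a different gene in each label. The shift of 44.9 percentage points was the widest of the 24 shares compared. Protein coding transcripts made up at most 46.1% of the TPM of RBBP4 in any library and at least 76.8% of that of RBBP7. With these alone the shift was 39.0 points, and which gene led in each library was not examined.

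**Figure D2:**
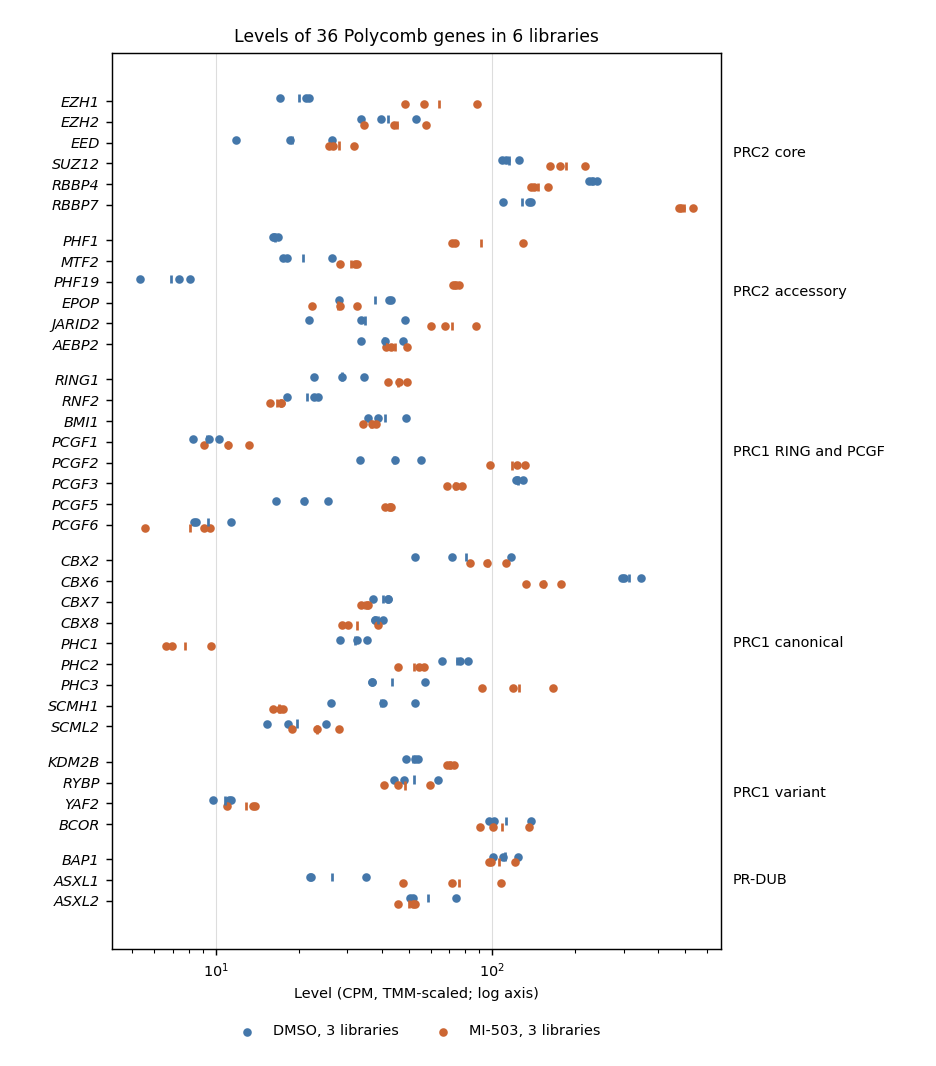
Level of each of 36 Polycomb genes in each of 6 libraries, in CPM on a log axis, with points for libraries and short lines for the mean of 3 libraries a label. The points of PHF19, PHF1, RBBP7 and PHC1 form separate groups by label, while those of EZH2, BCOR and BAP1 overlap.

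The accessory subunits of PRC2 held the largest fold changes of the 36 members. PHF1, MTF2 and PHF19 are the Polycomb-like proteins, which bring PRC2 to DNA in the form called PRC2.1. PHF19 was at 8.10, 7.36 and 5.33 CPM in the DMSO libraries and 76.0, 73.3 and 72.4 CPM in the MI-503 libraries, 10.7-fold higher (log2 fold change 3.41 ± 0.20 SE, adjusted p = 4.85e-07). PHF1 was at 16.1, 16.8 and 16.3 against 129, 71.6 and 73.6 CPM, 5.59-fold higher (log2 fold change 2.48 ± 0.24 SE, adjusted p = 1.63e-05). With the MI-503 label PHF19 varied little, while replicate 1 stood above the other libraries for PHF1. With the DMSO label PHF1 varied little, while PHF19 ran from 5.33 to 8.10 CPM.

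MTF2, the most abundant Polycomb-like protein of embryonic stem cells, was at 18.2, 17.6 and 26.3 against 32.0, 32.5 and 28.3 CPM. It was called (log2 fold change 0.58 ± 0.20 SE, adjusted p = 0.0286), but not under 6 of the 14 alternatives, among them the fits without DMSO replicate 1 (adjusted p = 0.0757), DMSO replicate 2 (0.117), MI-503 replicate 1 (0.0559) and MI-503 replicate 2 (0.0889). Its adjusted p ran from 0.00386 to 0.155 over all alternatives. The family's summed TPM was 29.0, 25.6 and 31.3 in the DMSO libraries and 169, 127 and 120 with the MI-503 label. Within it MTF2 took 36.7%, 32.2% and 44.2% against 8.66%, 12.2% and 9.58%, and PHF19 took 20.9%, 24.8% and 12.1% against 38.1%, 48.8% and 49.8%. Neither share overlapped between the labels, while that of PHF1 did (39.0% to 53.3% over all libraries). From CPM the PHF1 share was separated too (its mean higher by 8.32 points), but narrowly, with replicate 2 of both labels lying close together.

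Of the other accessory subunits, JARID2, which marks the PRC2.2 form and binds ubiquitylated H2A, was at 48.4, 33.6 and 21.8 against 87.2, 67.6 and 60.1 CPM (log2 fold change 1.05 ± 0.27 SE, adjusted p = 0.00728). Its groups did not overlap, and the libraries labelled DMSO spread widely. AEBP2, the other PRC2.2 subunit, was at 33.7 to 47.5 against 41.3 to 49.3 CPM (adjusted p = 0.542). EPOP, a subunit of PRC2.1, was at 28.0, 43.2 and 42.5 against 28.2, 22.4 and 32.6 CPM and was not called (log2 fold change -0.45, adjusted p = 0.0984, range over the alternatives 0.0202 to 0.364). It passed in the fit without DMSO replicate 1 (log2 fold change -0.63, adjusted p = 0.0202). The PRC2.1 subunits PHF1, MTF2, PHF19 and EPOP together took 49.5%, 59.3% and 66.1% of the accessory TPM in the DMSO libraries and 78.5%, 74.6% and 77.4% with the MI-503 label, without overlap.

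In PRC1, the ligase subunit RING1 was called higher and its paralogue RNF2 was not called. RING1 was at 22.7, 28.6 and 34.5 against 46.1, 42.2 and 49.2 CPM, without overlap (log2 fold change 0.68 ± 0.19 SE, adjusted p = 0.00986). RNF2, the main H2A ligase of many cells, was at 22.8, 23.4 and 18.1 against 15.7, 17.2 and 17.3 CPM. Its groups did not overlap either, but it was not called (log2 fold change -0.35 ± 0.19 SE, adjusted p = 0.123, range over the alternatives 0.0477 to 0.724), except without DMSO replicate 3, where the log2 fold change was -0.46 (adjusted p = 0.0477). The share of RNF2 in the pair's TPM was 45.4%, 39.9% and 25.8% against 22.1%, 29.5% and 24.2%, which overlapped (p = 0.20, exact permutation test, two-sided, 0.240 after adjustment).

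PCGF proteins decide which kind of PRC1 forms, since BMI1 and PCGF2 build canonical PRC1 and the others build variant complexes. PCGF2 was at 55.2, 44.6 and 33.2 against 132, 123 and 98.2 CPM, 2.66-fold higher (log2 fold change 1.41 ± 0.21 SE, adjusted p = 0.000244). BMI1, its close paralogue, was at 48.9, 38.8 and 35.6 against 34.2, 38.2 and 36.8 CPM (log2 fold change -0.18 ± 0.17 SE, adjusted p = 0.396). PCGF2 was separated by label, and BMI1 overlapped. PCGF3 was at 123, 122 and 129 against 78.2, 74.1 and 69.0 CPM (log2 fold change -0.75 ± 0.14 SE, adjusted p = 0.000877). PCGF5, which forms the same kind of variant complex as PCGF3, was at 25.6, 20.9 and 16.5 against 42.6, 43.1 and 41.2 CPM (log2 fold change 1.01 ± 0.19 SE, adjusted p = 0.00112). These alternative subunits of one kind of complex were called in opposite directions. Protein coding transcripts made up 10.1% to 22.3% of the TPM of PCGF5, and with these alone its log2 fold change was 1.29 (adjusted p = 0.000602). PCGF1 at 8.32 to 13.2 CPM and PCGF6 at 5.56 to 11.4 CPM over all libraries were the lowest of the family in CPM and were not called (adjusted p = 0.363 and 0.501).

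As shares of the summed TPM of the 6 PCGF genes, PCGF2 took 25.1%, 20.6% and 16.0% in the DMSO libraries and 42.3%, 41.6% and 38.2% with the MI-503 label. PCGF3, the most abundant PCGF gene with the DMSO label, went from 30.3%, 38.2% and 39.3% to 18.3%, 16.4% and 19.5%. BMI1 and PCGF2 together took 40.6%, 32.5% and 28.8% against 51.4%, 53.7% and 47.6%. None of these shares overlapped. An antisense gene of PCGF3, PCGF3-AS1, was counted at 8.37 to 18.3 CPM. The reads of overlapping genes may be split between them, so the level of PCGF3 is uncertain to an extent that was not tested.

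**Figure D3:**
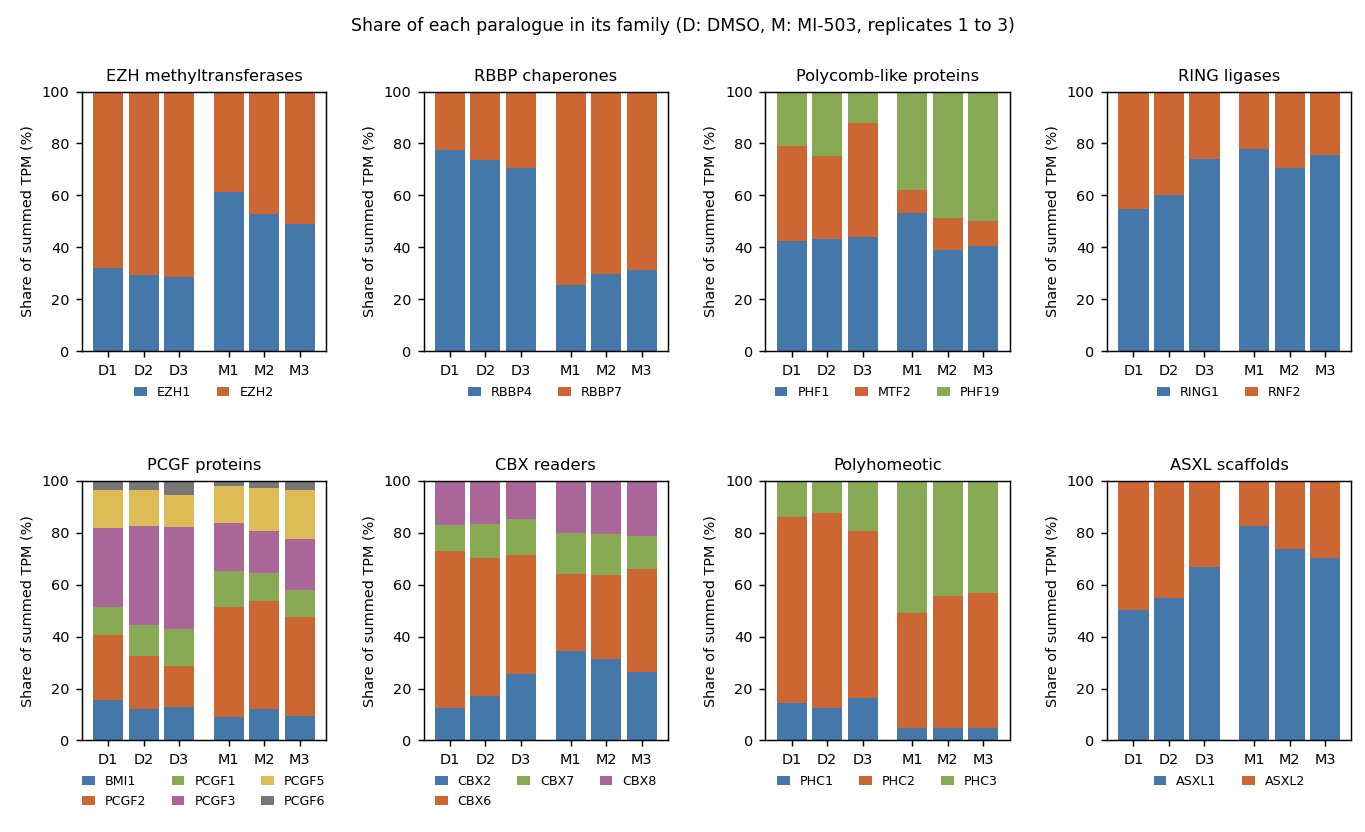
Share of each paralogue in the summed TPM of its family (y axis, percent) in 6 libraries (D for DMSO and M for MI-503, replicates 1 to 3), for 8 families. RBBP7 goes from 22.7% to 29.4% of its family in D bars to 68.6% to 74.4% in M bars, and PHC3 from 12.3% to 19.1% to 43.2% to 50.7%.

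Canonical PRC1 also holds a CBX protein, which reads methylated lysine 27, and a polyhomeotic protein, which lets complexes cluster. CBX6 was at 345, 300 and 295 against 153, 133 and 178 CPM, 2.03-fold lower in the MI-503 libraries (log2 fold change -1.02 ± 0.16 SE, adjusted p = 0.000358). CBX2, known for compacting chromatin, was at 52.8, 71.7 and 117 against 112, 96.0 and 83.1 CPM. CBX6 was separated by label, while CBX2 overlapped and was not called (log2 fold change 0.27 ± 0.27 SE, adjusted p = 0.407, range over the alternatives 0.0189 to 0.907), except without DMSO replicate 3 (0.64, adjusted p = 0.0189). CBX7 and CBX8 were at 33.7 to 42.1 and 28.6 to 40.2 CPM over all libraries and were not called (adjusted p = 0.240 and 0.220), although CBX7 did not overlap between the labels. Of the TPM of these 4 CBX genes, CBX6 took 60.6%, 53.1% and 46.1% against 29.5%, 32.4% and 39.7%, and CBX2 took 12.3%, 17.3% and 25.5% against 34.5%, 31.4% and 26.3%. Neither overlapped, although DMSO replicate 3 at 25.5% and MI-503 replicate 3 at 26.3% of CBX2 lay close together.

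The 3 polyhomeotic genes were all called. PHC1 was at 35.2, 28.2 and 32.4 against 9.65, 6.64 and 6.95 CPM, 4.11-fold lower in the MI-503 libraries (log2 fold change -2.04 ± 0.22 SE, adjusted p = 2.66e-05). PHC3 was at 57.3, 36.9 and 36.8 against 166, 119 and 91.7 CPM, 2.88-fold higher (log2 fold change 1.52 ± 0.25 SE, adjusted p = 0.000509). PHC2 was at 76.8, 81.7 and 66.0 against 56.6, 54.3 and 45.6 CPM (log2 fold change -0.52 ± 0.16 SE, adjusted p = 0.0167). All 3 were separated by label, PHC3 on the other side from PHC1 and PHC2. PHC1 was the member past a log2 fold change of -2, and it was within that limit without DMSO replicate 1 (-1.97), MI-503 replicate 2 (-1.91) or MI-503 replicate 3 (-1.95) and with an offset for effective length (-1.78), with its call kept in each. PHC2 lost its call without DMSO replicate 2 (-0.46, adjusted p = 0.0728) and without MI-503 replicate 3 (-0.41, adjusted p = 0.0839), in a range of 0.00595 to 0.0839. The pseudogene PHC1P1 was counted at 1.36 to 6.65 CPM, and reads may be split between it and PHC1.

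Within the polyhomeotic genes, PHC3 took 14.1%, 12.3% and 19.1% of the TPM in the DMSO libraries and 50.7%, 44.2% and 43.2% with the MI-503 label. PHC2 went from 71.5%, 75.4% and 64.5% to 44.4%, 51.1% and 52.1%, and PHC1 from 14.4%, 12.3% and 16.4% to 4.81%, 4.72% and 4.67%. The family's summed TPM overlapped, at 61.2 to 83.1 and 44.8 to 67.8. The related SCM proteins, which bind polyhomeotic proteins, shifted too. SCMH1 was at 52.8, 26.1 and 40.2 against 17.5, 16.1 and 17.1 CPM (log2 fold change -1.23 ± 0.25 SE, adjusted p = 0.00159), and SCML2 at 15.4 to 25.2 against 18.9 to 27.9 CPM (adjusted p = 0.374). SCML2 made up 15.6%, 26.4% and 25.3% of their TPM against 50.5%, 44.8% and 36.8%.

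Of the listed subunits of variant PRC1, only KDM2B was called. KDM2B, which binds unmethylated CpG islands, was at 53.8, 49.0 and 52.6 against 70.4, 68.8 and 73.1 CPM, without overlap (log2 fold change 0.45 ± 0.14 SE, adjusted p = 0.0176). KDM2B lost its call under 4 alternatives, among them the fits without DMSO replicate 2 (0.41, adjusted p = 0.0793) and without MI-503 replicate 3 (0.45, adjusted p = 0.0524), in a range of 0.0130 to 0.151. RYBP, which stimulates the ligase, was at 44.4 to 63.7 against 40.6 to 59.5 CPM, and its paralogue YAF2 at 9.83 to 11.4 against 11.0 to 13.9 CPM. BCOR, the scaffold of the PCGF1 complex, was at 97.9 to 138 against 90.3 to 136 CPM. These 3 overlapped and were not called (adjusted p = 0.687, 0.327 and 0.860).

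In PR-DUB, the enzyme BAP1 was at 101, 110 and 124 against 121, 97.6 and 99.1 CPM (log2 fold change -0.08 ± 0.16 SE, adjusted p = 0.684). ASXL1, a scaffold that activates BAP1, was at 22.2, 22.0 and 35.0 against 108, 71.6 and 47.6 CPM, 2.88-fold higher (log2 fold change 1.52 ± 0.30 SE, adjusted p = 0.00151). BAP1 overlapped and ASXL1 did not, with its highest level in MI-503 replicate 1. ASXL2 was at 74.0, 52.0 and 50.5 against 51.6, 52.5 and 45.9 CPM (adjusted p = 0.288). ASXL2 made up 49.5%, 45.0% and 33.1% of the TPM of these 2 scaffolds against 17.5%, 26.4% and 29.6%, without overlap. With transcripts annotated as protein coding alone, the log2 fold change of ASXL1 was 0.73 (adjusted p = 0.0303), in a range of 3.50e-09 to 0.0303. Over the 24 shares in all families, 9 were higher and 8 were lower without overlap, and 7 overlapped, so 17 of 24 were separated. Shares of a family depend on each other, and over all genes 34.7% and 34.0% had separated levels in those directions.

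Among the members called higher, 7 of 13 were highest in MI-503 replicate 1. EZH1 had a log2 fold change of 1.45 without that library and ASXL1 of 1.22, and each of the 13 kept its call but MTF2. Of 16 proliferation genes, 3 were higher and 3 were lower (18.8% each, beside 31.7% and 31.2% of all genes), and 10 were not called. Those called included TOP2A at 1.93 and TYMS at -1.22 on the log2 scale (adjusted p = 1.08e-05 and 0.000743).

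At the level of transcripts, the same transcript led in all 6 libraries for 23 of 36 members. PHF19 was the clearest case of a change. PHF19-202, which encodes 580 residues from 15 exons, was at 0.563, 0.276 and 0.175 TPM in the DMSO libraries and at 12.5, 15.3 and 16.2 TPM with the MI-503 label. PHF19-201, a short form of 207 residues from the same start site, was at 1.54, 2.52 and 1.84 against 35.0, 37.3 and 36.3 TPM. PHF19-203, which starts within the gene and encodes 371 residues, took 36.8%, 26.8% and 36.2% of the gene's TPM against 8.12%, 2.26% and 0%. Its own level overlapped between the labels, at 2.23, 1.70 and 1.38 against 5.23, 1.40 and 0 TPM. PHF19 had as few as 117 reads in a library, which limits the precision of these shares. Both transcripts from the promoter printed above thus made up most of the higher level.

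KDM2B and EZH2 shifted in part. KDM2B-202, which encodes 1336 residues, took 37.2%, 39.6% and 34.0% of its gene against 45.5%, 44.4% and 49.8%, and KDM2B-214, a form of 704 residues from a start within the gene, took 42.4%, 31.7% and 29.7% against 13.2%, 23.9% and 20.8%. Both shares were separated by label. EZH2-209, annotated as subject to nonsense-mediated decay, took 7.74%, 6.30% and 13.3% of EZH2 against 34.7%, 16.5% and 17.4%. The level of EZH2-209 overlapped between the labels, at 1.53, 1.41 and 3.79 against 9.87, 3.76 and 3.11 TPM. With transcripts annotated as protein coding alone, EZH2 had a log2 fold change of -0.34 (adjusted p = 0.158, in a range of 0.158 to 0.993). ASXL1 was the member whose leading transcripts were not shared by the labels, and protein coding transcripts made up 17.9% to 44.3% of its TPM. RYBP rested mostly on RYBP-204 (84.6% to 91.4%), which has no coding sequence in the annotation. Salmon's split of reads among transcripts is an estimate, and no test was run on these shares.

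**Figure D4:**
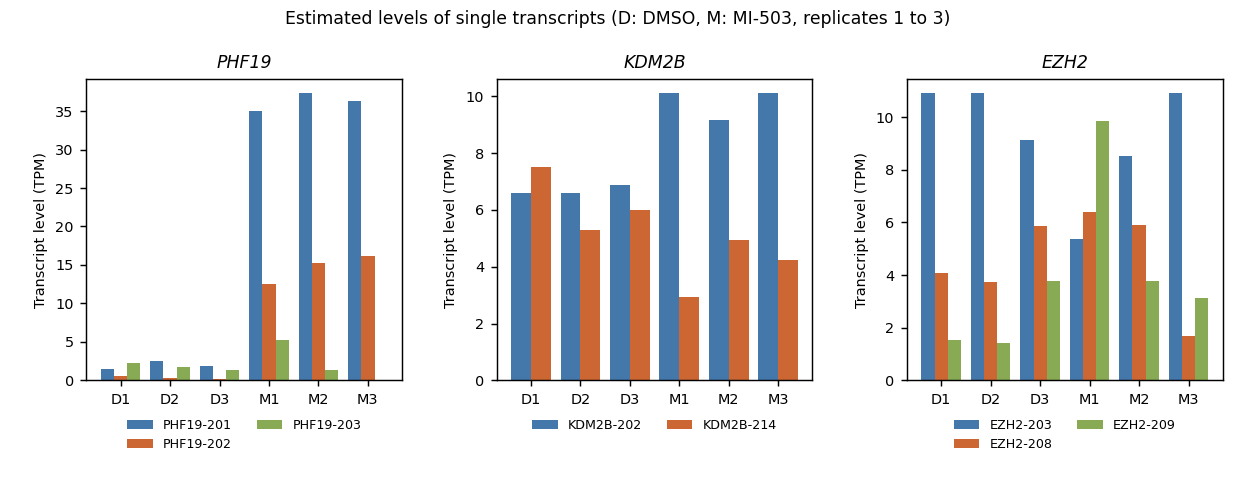
Estimated level of single transcripts in TPM (y axis, linear from 0) in 6 libraries (D for DMSO and M for MI-503, replicates 1 to 3) for PHF19, KDM2B and EZH2. PHF19-201 reaches 35.0 to 37.3 TPM in M bars against 1.54 to 2.52 in D bars, and EZH2-209 is highest in M1 (EZH2-209 at 9.87 TPM).

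Partners of the complexes outside the 36 members gave similar counts. Of 34 listed, 32 were tested, and 12 were higher (37.5%) and 6 were lower (18.8%), beside 31.7% and 31.2% of all genes. AUTS2, a partner of PCGF3 and PCGF5 complexes, was at 0.848 ± 0.175 against 149 ± 14.8 CPM (SD, n = 3 each), and SFMBT2, a methyl-lysine binding relative of the SCM proteins, at 1.26 ± 0.253 against 17.9 ± 0.610 CPM. Both were higher (log2 fold change 7.45 and 3.83, adjusted p = 1.79e-08 and 1.45e-06). FBRS, an AUTS2 relative, was higher by 1.53, and the deacetylase HDAC2 had a log2 fold change of -1.56 (adjusted p = 2.20e-05 and 2.23e-05). Of the PRC2 and PR-DUB partners, YY1 was higher by 0.97, MBD6 by 1.87, and KDM1B, a demethylase of lysine 4, was higher by 0.72 (adjusted p = 0.000316, 0.000121 and 0.00317). FOXK2, a forkhead factor that binds BAP1, was higher by 0.62 (adjusted p = 0.00594), but not with protein-coding transcripts alone (0.18, adjusted p = 0.299). LCOR had a log2 fold change of -0.48 (adjusted p = 0.0288) and kept its call under 7 of 14 alternatives, in a range of 0.00998 to 0.359. LCOR lost it without DMSO replicate 1 (-0.34) or 2 (-0.51), without MI-503 replicate 1 (-0.46), 2 (-0.42) or 3 (-0.44), with no filter (-0.44) and with the effective length offset (-0.21). The glycosyltransferase gene OGT had a log2 fold change of -0.93 (adjusted p = 0.0125) with groups that overlapped, and it lost its call without MI-503 replicate 2 (-0.80, adjusted p = 0.0577) or replicate 3 (-0.76, adjusted p = 0.0604). The remaining PRC2 partners EHMT1 and EHMT2, methyltransferases of lysine 9, were not called (0.27 and 0.25, adjusted p = 0.121 and 0.158).

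Enzymes that act against the complexes were lower or were not called. KDM6A, a demethylase of lysine 27, was at 123 ± 38.0 against 54.8 ± 11.5 CPM (SD, n = 3 each, log2 fold change -1.17, adjusted p = 0.00184). MYSM1, an H2A deubiquitinase, was at 35.3 ± 4.99 against 19.3 ± 0.963 CPM (log2 fold change -0.87, adjusted p = 0.00171). KDM6B and USP16 were not called (log2 fold change -0.57 and -0.35, adjusted p = 0.122 and 0.0543). Thus 0 of these 4 were higher and 2 were lower, too few genes to set against the 31.2% of all genes that were lower.

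Of 28 developmental genes known as Polycomb targets in embryonic stem cells, 15 were too low to test. Of the 13 tested, 11 were higher and 2 were lower, and a gene low in 1 label could pass the filter only through the other, so this count is a description. The cell-cycle inhibitor gene CDKN2B was at 1.39 ± 0.143 against 10.3 ± 0.853 CPM (SD, n = 3 each, log2 fold change 2.88, adjusted p = 1.48e-05). NKX2-2 was at 0.0151 ± 0.0261 against 10.1 ± 0.279 CPM, and PAX6 had no read in the DMSO libraries and 7.31 ± 2.83 CPM with the MI-503 label (SD, n = 3 each). MSX1, a homeobox gene, was at 14.1 ± 1.57 against 0.341 ± 0.165 CPM. These genes moved in both directions, beside the opposite shifts of luminal breast and prostate markers, whose part in them was not tested.

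By position, 6 members lie on chromosome 17, and CBX2 and CBX8 are neighbours there, 4.15 kb apart in GENCODE release 44. EPOP and PCGF2 lie 58.9 kb apart, CBX6 and CBX7 248 kb apart on chromosome 22, and RING1 and PHF1 198 kb apart on chromosome 6. Of these pairs, RING1 and PHF1 were both higher, while in the pairs of PCGF2 and CBX6 the neighbour was not called and neither of CBX2 and CBX8 was.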

How the data were processed

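The 36 members and all lists were chosen with earlier results of these data known. Total RNA from 6 cultures was purified with the RNeasy kit with DNase treatment and sequenced by Novogene. The authors quantified transcripts with salmon and deposited estimated counts per transcript, without normalization, and TPM, which salmon scales by effective length within each library. The submitters' processing notes name GRCh38.p13 and hg38. The salmon version is not given in the sources used here, nor is the annotation release.

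GENCODE release 44 assigned 229321 of 232117 transcripts (98.8%) and at least 99.16% of reads per library to genes. Estimated counts were summed to genes and rounded. Mitochondrial genes took 1.37% to 7.12% of reads, and TMM factors were 0.934 to 1.053. Groups follow the labels. The main test was edgeR's quasi-likelihood test (edgeR 4.0.16, R 4.3.3) after filterByExpr, with Benjamini-Hochberg adjustment over 16442 genes. Its standard errors (SE) were derived as the size of the log2 fold change divided by the square root of the F statistic. The thresholds, an adjusted p of 0.05 and a log2 fold change of 2, were those of the paper. Paralogue shares of summed TPM were compared with the exact permutation test, two-sided (scipy 1.17.1). The 14 alternative fits were DESeq2 1.42.0 (the tool of the paper), RLE and upper-quartile scaling, no filter, at least 1 CPM in at least 3 libraries, the replicate number as a block, an offset for effective length, protein-coding transcripts alone, and leaving out each of 6 libraries. Shares were also recomputed from CPM. The test was also run on simulated counts in which few genes changed and all shared a common dispersion. In these data 62.9% of genes were called, a setting that the simulation does not cover.

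Promoters are from RefSeq. All members are named, from other lists up to 4 genes with the smallest adjusted p, and MEN1, KMT2A, ESR1 and KLK3. PCGF3-AS1, PHC1P1 and SUZ12P1 were named after their values were seen. Depth limits the precision of low genes such as PCGF6.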

Additional observations from a re-analysis of the deposited data

How the results depend on the processing

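Of 504 values (36 members under 14 alternatives), 473 kept their direction and their side of the threshold, 12 lost a call, 6 gained one and 13 changed sign. Of the 19 called members, 16 were called under all 14 alternatives, the exceptions being MTF2, KDM2B and PHC2. Members higher numbered 13, and 11 with upper-quartile scaling or the effective length offset. Members lower past a log2 fold change of -2 numbered 1, but 0 with the effective length offset, where PHC1 was at -1.78. With 1 library left out, members higher numbered 11 to 15, lower 5 to 7, higher past the fold threshold 2 to 3 and lower past it 0 to 1. Upper-quartile scaling moved the median of all genes by -0.10 on the log2 scale.

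All members that changed sign were uncalled. BMI1 was at 0.01 with the effective length offset. With protein-coding transcripts alone, EZH2 was at -0.34 and RYBP at 0.09. With 1 library left out, EZH2 ran from -0.06 to 0.31, RYBP from -0.22 to 0.07, BCOR from -0.19 to 0.12, BAP1 from -0.14 to 0.00 and PCGF6 from -0.34 to 0.03. The PHF1 share, 1.28 percentage points, was -1.30 with protein-coding transcripts alone and 8.32 from CPM. From CPM, 21 of the 24 shares were separated by label in place of 17 (RNF2, BMI1, PCGF5, CBX7 and PHF1 gained, PCGF6 lost), and the PHC1 share moved from -9.66 to -17.1 points. With protein-coding transcripts alone the CBX2 share overlapped, and those of BMI1 and PCGF5 did not. The PCGF1 share, -0.619 points, was 0.0539 from CPM and 0.224 with protein-coding transcripts alone. With 1 library left out, the PHF1 share ran from -3.21 to 3.94 points and the PCGF1 share from -1.79 to 0.280 points. The causes were not tested.

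Deviations of same-numbered libraries from their group means correlated at 0.031, 0.206 and -0.015 over 10449 genes. Libraries with different numbers correlated at -0.252 to 0.167. With 3 libraries a label and groups that differ in cell type markers, these values cannot show whether the libraries were handled in pairs. With the replicate block, 14 members were higher and 6 were lower, EED being gained (adjusted p = 0.0441).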
